A study of Mus musculus with 4 samples.

Results

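Gene deserts are long stretches of the genome without protein-coding genes. The regions described here are the Trim33 peaks of T helper 17 (Th17) cells that lie in them, with the summit outside every protein-coding gene and more than 100 kb from the nearest gene end on chromosomes 1 to 19. They numbered 1474 of 26631 autosomal peaks, or 5.53% (exact binomial interval 5.26% to 5.82%), in a deposited list of 27050 peaks. Naive CD4+ T cells from spleen and lymph nodes of C57BL/6 mice had been cultured on anti-CD3 and anti-CD28 with IL-6, TGF-beta and antibodies that block IL-4 and IFN-gamma. The series holds 2 Trim33 ChIP libraries and 2 input DNA libraries of these cells, with no other genotype, treatment or time. The ChIP replicates were merged before peak calling, so each peak has 1 fold enrichment over background, made by the authors, with no spread between cultures and no known depth. Regions are not replicates, so the differences below are descriptions without a test. A peak list holds no expression, and the Th17 label could not be checked against markers.

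Trim33 is a chromatin-bound ubiquitin ligase of the TRIM family that reads modified histone H3 and works with SMAD proteins, the transducers of TGF-beta signals. Th17 cells need TGF-beta and IL-6 to form. Enhancers, the DNA elements that raise the transcription of a gene from afar, often lie in deserts that flank genes for transcription factors. A peak says where Trim33 was recovered, not which gene it acts on, so the flanking genes named below give position only.

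A small part of the desert summits fell on starts of long noncoding RNAs (lncRNAs), and these are shown first because the start windows of RefSeq (GRCm38.p6, which is mm10) are the desert sequences used here. Each window runs from 250 bases before to 50 bases after a start. Of the desert summits, 21 (1.42%) lay in such a window, against 16.9% of all autosomal summits. Since starts can lie close together, these 21 summits fell in 24 windows, and each summit is counted below with 1 window, the first by position. The list below holds the window under the strongest desert peak and the windows of the 6 summits with an AP-1 match centred within 15 bases. Capitals mark matches, on either strand, to TGANTCA (the AP-1 element, bound by FOS, JUN and BATF proteins), TGTGGT (the RUNX element) and CAGCTG (an E-box, bound by E proteins).
Gm41331: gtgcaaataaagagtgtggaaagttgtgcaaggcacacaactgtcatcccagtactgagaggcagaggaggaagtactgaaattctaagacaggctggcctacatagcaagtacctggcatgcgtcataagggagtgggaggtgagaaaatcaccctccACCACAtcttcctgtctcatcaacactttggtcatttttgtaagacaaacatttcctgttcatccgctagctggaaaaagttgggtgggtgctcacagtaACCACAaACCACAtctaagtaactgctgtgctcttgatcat
Gm38326: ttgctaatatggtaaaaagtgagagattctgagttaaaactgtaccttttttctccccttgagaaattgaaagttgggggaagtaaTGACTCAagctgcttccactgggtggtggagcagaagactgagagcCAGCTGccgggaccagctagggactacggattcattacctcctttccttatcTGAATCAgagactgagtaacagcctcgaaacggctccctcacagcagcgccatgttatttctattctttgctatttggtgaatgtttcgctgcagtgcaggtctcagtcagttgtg
Gm33323: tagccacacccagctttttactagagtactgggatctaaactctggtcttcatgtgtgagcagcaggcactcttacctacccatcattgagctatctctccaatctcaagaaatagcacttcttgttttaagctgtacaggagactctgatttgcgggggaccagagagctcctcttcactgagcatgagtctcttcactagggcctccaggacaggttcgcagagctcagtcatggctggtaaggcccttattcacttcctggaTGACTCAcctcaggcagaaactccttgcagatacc
Gm30257: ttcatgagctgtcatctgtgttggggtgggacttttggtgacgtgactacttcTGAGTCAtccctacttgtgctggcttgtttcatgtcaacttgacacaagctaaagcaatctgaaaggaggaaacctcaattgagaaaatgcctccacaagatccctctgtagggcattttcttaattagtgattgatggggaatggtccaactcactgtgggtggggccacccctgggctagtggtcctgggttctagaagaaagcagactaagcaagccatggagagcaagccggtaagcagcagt
Gm29854: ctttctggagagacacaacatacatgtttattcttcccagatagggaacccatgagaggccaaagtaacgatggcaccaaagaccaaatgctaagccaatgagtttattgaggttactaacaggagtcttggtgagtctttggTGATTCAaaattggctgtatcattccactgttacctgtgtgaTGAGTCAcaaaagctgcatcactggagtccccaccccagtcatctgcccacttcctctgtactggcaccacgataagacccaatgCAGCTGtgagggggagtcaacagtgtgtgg
Gm5122: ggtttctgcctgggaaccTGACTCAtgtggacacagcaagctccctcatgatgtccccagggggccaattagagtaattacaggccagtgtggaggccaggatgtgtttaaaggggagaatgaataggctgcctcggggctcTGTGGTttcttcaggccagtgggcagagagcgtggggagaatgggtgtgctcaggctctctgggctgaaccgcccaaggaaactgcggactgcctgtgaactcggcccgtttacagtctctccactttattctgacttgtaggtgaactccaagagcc
Morrbid: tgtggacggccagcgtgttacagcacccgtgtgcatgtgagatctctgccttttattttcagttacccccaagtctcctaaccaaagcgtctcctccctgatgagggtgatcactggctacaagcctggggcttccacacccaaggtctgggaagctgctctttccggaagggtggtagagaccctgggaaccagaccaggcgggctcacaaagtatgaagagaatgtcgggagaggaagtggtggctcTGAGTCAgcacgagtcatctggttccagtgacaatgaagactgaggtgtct
The Gm41331 window is chr15:60141576-60141875 on the plus strand, and the summit is its base 152. The Gm38326 window is chr3:60788111-60788410 (plus strand, summit at base 105) and lies 158 kb from Mbnl1 and 215 kb from P2ry1. The Gm33323 window is chr7:129764377-129764676 (plus strand, summit at base 277). It overlaps the start window of Gm33398 on the other strand, which holds the same summit and the same AP-1 match and is not printed. The Gm30257 window is chr2:72733571-72733870 (plus strand, summit at base 63), between Cdca7 and Sp3. The Gm29854 window is chr16:7767641-7767940 (plus strand, summit at base 182), and the Gm5122 window is chr9:61016819-61017118 (plus strand, summit at base 25). The Morrbid window is chr2:128429302-128429601 on the minus strand, with the summit at base 243.

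AP-1 letters were common under these desert summits and lay close to them. Of the 21 windows, 9 (42.9%) held TGANTCA, and in all 9 a match was centred within 50 bases of the summit, at a median of 10 bases. Among the other 4469 windows that held a Trim33 summit, 5.53% had a match and 2.60% had one within 50 bases. Among 385 of those that belong to lncRNAs, 48 windows had a match and 26 (6.75%) had one within 50 bases. The share over all 32851 start windows, with or without a summit, was 7.81%. The Gm5122 match was centred 3 bases from the summit, that of Gm30257 6 bases, that of Gm29854 7 bases, that of Gm33323 8 bases and that of Morrbid 10 bases.

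Within 50 bases of the summit, RUNX and E-box letters were each in 1 of the 21 desert windows, too few to compare shares. The shares were 4.76% for each in deserts, against 3.89% for RUNX and 4.77% for the E-box in the others. RUNX letters were in 16.8% of all windows and 20.1% of lncRNA windows. Among windows with a summit outside deserts, they were in 11.7% of all and 14.8% of those of lncRNAs. In deserts they were in 5 of the 21 windows (23.8%), and 1 window had a match within 50 bases of its summit. That window was Gm41331 under the strongest peak, with 3 matches, the nearest centred 10.5 bases from the summit. The E-box was in 4 of 21 windows, and 1 of these had it within 50 bases. It was in 16.3% of all windows and 17.6% of lncRNA windows. Among windows with a summit outside deserts, it was in 13.9% of all and 17.1% of those of lncRNAs. The palindromic SMAD element GTCTAGAC was in 0 of the 21 windows and in 0.213% of all windows. The short SMAD letters CAGAC were in 11 of 21 (52.4%) and in 49.6% of all windows. The distance of the SMAD letters from the summits was not measured. These are matches of letters in the few desert summits that have a window.

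Desert summits became sparse with distance from genes while their median fold stayed at 6.47 or above. Between 10 and 100 kb from a gene there were 9.14 summits per Mb (4804 over 525 Mb). From 100 to 200 kb there were 4.48 per Mb (885), from 200 to 500 kb 1.99 per Mb (508), from 500 to 1000 kb 0.494 per Mb (67), and farther away 0.183 per Mb (12 summits in 65.7 Mb). The exact Poisson intervals of these 5 rates did not overlap. They cover counting error only and treat summits as independent, although many lay close together, so they do not test the differences. The median fold in the same bands was 6.14, 6.47, 6.53, 6.52 and 7.18. The share at 10-fold or more was 13.4%, 14.2%, 16.3%, 11.9% (8 of 67) and 25% (3 of 12). Several of the 12 farthest summits lay in the same desert, between Nmbr and Cited2. Unsequenced gaps were not removed from the lengths. The rate over all deserts was 2.25 per Mb, and it was 3.13 per Mb with a limit of 50 kb and 1.29 per Mb with 200 kb.

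**Figure D1:**
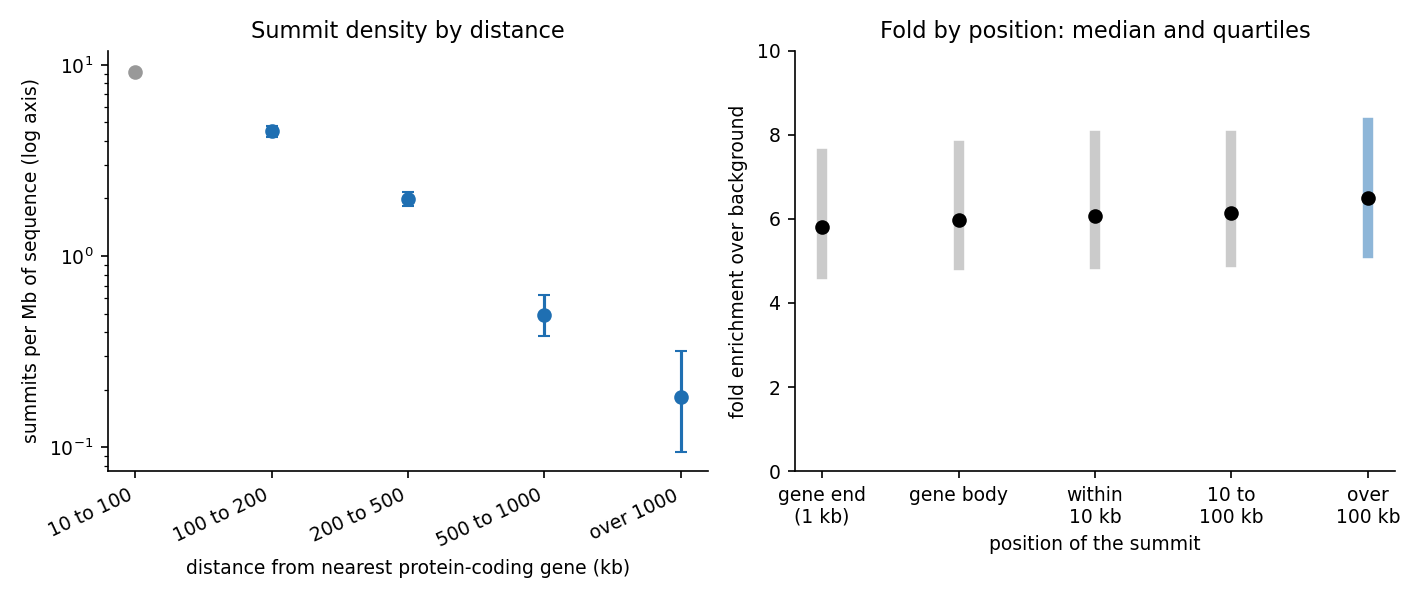
Left, summits per Mb of intergenic sequence (log axis) in 5 bands of distance from the nearest protein-coding gene, with exact Poisson 95% intervals; right, median (points) and quartiles (bars) of the fold enrichment for 5 positions of the summit. The rate falls from 9.14 to 0.183 per Mb, and the median fold runs from 5.80 at gene ends to 6.50 in deserts.

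Desert peaks were as high as peaks elsewhere in the list, or slightly higher. The median fold was 6.50, the quartiles were 5.18 and 8.27, and the lowest and highest were 2.64 and 38.5. The median was 6.14 for summits 10 to 100 kb from genes, 5.97 inside gene bodies and 5.80 at gene ends. A fold of 10 or more was reached by 220 desert peaks (14.9%, exact binomial interval 13.1% to 16.8%), against 11.1% of all autosomal peaks. The share was 13.4% at 10 to 100 kb and 8.94% at gene ends. A fold of 15 or more was reached by 40 desert peaks (2.71%), against 2.04% of all. The median width was 225.5 bp, against 227 bp over all autosomal peaks. Width went with fold: the median was 173.5 bp below 5-fold and 369.5 bp at 15-fold or more in deserts, and 182 and 406 bp in the same classes elsewhere. The 3 summits just inside the limit, at 100.1 to 100.4 kb from Cog6, Jarid2 and 1700056E22Rik, had 7.54-, 8.23- and 4.16-fold enrichment. The 3 just outside, at 99.8 to 99.9 kb from Rnf144a, Tmem174 and Trim24, had 8.71-, 4.31- and 6.66-fold.

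The strongest desert peak, with 38.5-fold enrichment, lay at chr15:60141197-60142324. It ranked 9 among all autosomal peaks, was 1128 bp wide, and was 125 kb from 4933412E24Rik and 677 kb from Lratd2. Its summit was at the start of the lncRNA Gm41331 shown above. The second desert peak had 22.7-fold enrichment.

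The next strongest peaks ranked from 81 to 142 among all autosomal peaks, except for an 18.5-fold peak at rank 196. The 22.7-fold peak on chromosome 18 lay 114 kb from Ss18, which encodes a subunit of the BAF chromatin remodeller, and 539 kb from Zfp521. A 22.3-fold peak at chr3:52790738-52791541 lay between Foxo1 (441 kb), a factor that keeps T cells quiescent, and Cog6 (191 kb). The 18.5-fold peak was in the same desert 481 kb from Foxo1. The peak at chr16:51813973-51814514 had 20.9-fold enrichment and lay 217 kb from Cblb, a ubiquitin ligase that restrains T cell receptor signals. A 20.6-fold peak lay 123 kb from Rybp, a subunit of Polycomb complex PRC1, and 162 kb from Shq1. The desert next to Id2, an inhibitor of E proteins, held a 20.3-fold peak at chr12:25683064-25683494, 587 kb from Id2 and 623 kb from Rnf144a.

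The desert between Gadd45g and Diras2 held 3 of the 20 strongest peaks. Gadd45g encodes an activator of p38 and JNK kinase signals in T cells. The peaks had 19.1-, 19.9- and 16.6-fold enrichment and lay 178, 267 and 457 kb from Gadd45g. The 19.9-fold summit was inside the lncRNA 4921525O09Rik. A 19.5-fold peak lay 190 kb from Trib2, which encodes a pseudokinase, inside the lncRNA Gm36235. A 19.1-fold peak between Sox2 (624 kb) and Atp11b (478 kb) lay at the start of the lncRNA 1700017M07Rik. The summit of this peak lay in a run of repeated gtcata letters, whose effect on the fold was not tested. An 18.9-fold peak lay 123 kb from Max, the partner of MYC, and another of 18.9-fold lay between the nuclear receptor genes Rarb (327 kb) and Thrb (250 kb).

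The rest of the 20 strongest ran from 16.5- to 20.95-fold. A 20.95-fold peak lay 120 kb from Tars and 321 kb from Npr3, a natriuretic peptide receptor gene. An 18.8-fold peak was 140 kb from Tbl1xr1, which encodes a subunit of the NCoR co-repressor complex, and inside the lncRNA Gm31813. A further 18.8-fold peak was 1009 kb from Cited2, which encodes a co-regulator that binds CBP and p300, and 1943 kb from Nmbr. An 18.6-fold peak lay 158 kb from Etnk1 and 462 kb from Sox5. A 16.8-fold peak was 165 kb from Qk, an RNA-binding protein gene, and a 16.5-fold peak 293 kb from Trps1, which encodes a GATA-type repressor.

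Desert summits were crowded into few deserts. Counted between flanking genes, with 100 kb taken off at each side, there were 1376 deserts with 654 Mb. Of these, 337 (24.5%) held a summit and 1039 held none. A single summit was found in 105 deserts, 2 to 4 in 134, 5 to 9 in 62 and 10 or more in 36. Those 36 held 596 summits, 40.4% of the desert summits, in 4.48% of the desert sequence. They were picked by their number of summits, so this contrast follows in part from the choice. Longer deserts held fewer summits per Mb. Deserts of 1 Mb or more held 0.947 summits per Mb and those of 100 to 500 kb held 4.77 per Mb. The shares with a summit were 25.4% and 29.5%. The other 2 desert summits lay before the first gene of chromosomes 5 and 6 and belong to no bounded desert.

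**Figure D2:**
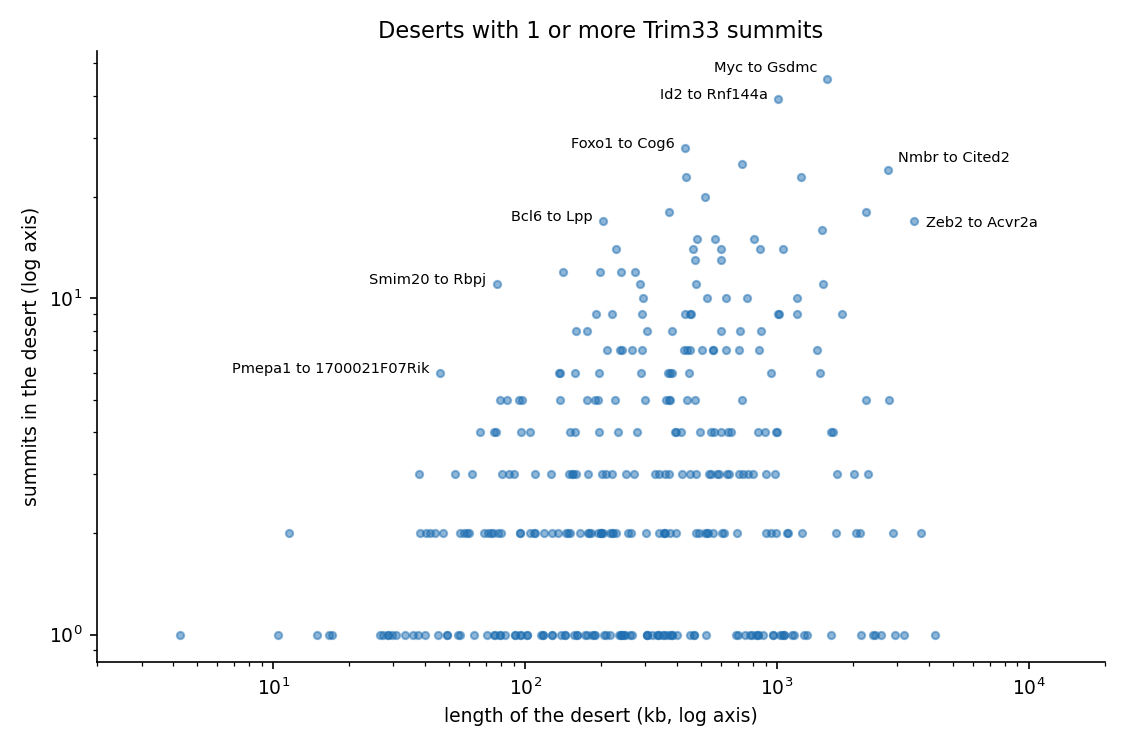
Each point is 1 of the 337 deserts with a Trim33 summit, by its length in kb and its number of summits (both log axes). The desert from Myc to Gsdmc holds 45 summits, and the 3.5 Mb from Zeb2 to Acvr2a holds 17, as many as the 204 kb from Bcl6 to Lpp.

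The desert with the most summits lay beyond Myc, the growth regulator that activated T cells induce. It held 45 summits over 1586 kb between Myc and Gsdmc, with a fold from 3.59 to 15.2 and a median of 6.51. Of these, 18 lay within 300 kb of Myc, 42 within 1000 kb and 3 farther away. Nearer to Myc than to Gsdmc lay 38. The lncRNA gene Pvt1, a neighbour of Myc, held 13 of the 45, and the highest of the desert (chr15:62240021-62240362) was among them. On the other side of Myc, the 864 kb towards A1bg held 8 summits of up to 15.6-fold.

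The desert between Id2 and Rnf144a came next, with 39 summits over 1011 kb and 9 of them at 10-fold or more. Within 200 kb of Id2 there were 12 summits. The largest group of the deserts, described below, started 132 kb beyond Id2. Farther out, the 20.3-fold summit was 587 kb from Id2, and 11 summits lay nearer to Rnf144a than to Id2.

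Foxo1 to Cog6 held 28 summits in 432 kb, or 64.8 per Mb, with a median fold of 6.26. The summits stood in a pair of blocks, 13 from 109 to 298 kb beyond Foxo1 and 15 from 427 to 532 kb, with none between them. Cd83 to Jarid2 held 25 summits up to 16.1-fold in 728 kb. CD83 is a surface protein of activated lymphocytes and dendritic cells, and Jarid2 encodes a subunit of Polycomb complex PRC2. Saraf to Dusp4 held 23 up to 14.3-fold, 15 of them nearer to Dusp4, which encodes a MAP kinase phosphatase. Trib2 to Lpin1 held 20 summits, with the highest median fold of the 12 most occupied deserts, 8.22, and 7 summits at 10-fold or more. Eea1 to Btg1 held 18 summits up to 15.1-fold, 12 of them nearer to Btg1, an antiproliferative gene of resting lymphocytes.

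In several long deserts nearly all summits lay towards 1 flanking gene. Between Nmbr and Cited2, 23 of 24 summits were nearer to Cited2, and 16 lay within 1000 kb of it. They ran from 3.29- to 18.8-fold. Between Celf2 and Gata3, all 18 were nearer to Gata3, at 107 to 991 kb. Gata3 encodes a factor needed for T cell development and Th2 fate. None of the 18 reached 10-fold, and the highest was 9.01-fold at 279 kb. Between Ccdc54 and Cblb, 19 of 23 were nearer to Cblb. Between Zeb2 and Acvr2a, 14 of 17 were nearer to Acvr2a, an activin receptor gene, and 13 lay inside the lncRNA Gm13481. The highest of these was 9.81-fold at 486 kb from Acvr2a. Between Cxcr4, a homing receptor gene, and Thsd7b, 15 of 15 were nearer to Cxcr4.

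**Figure D3:**
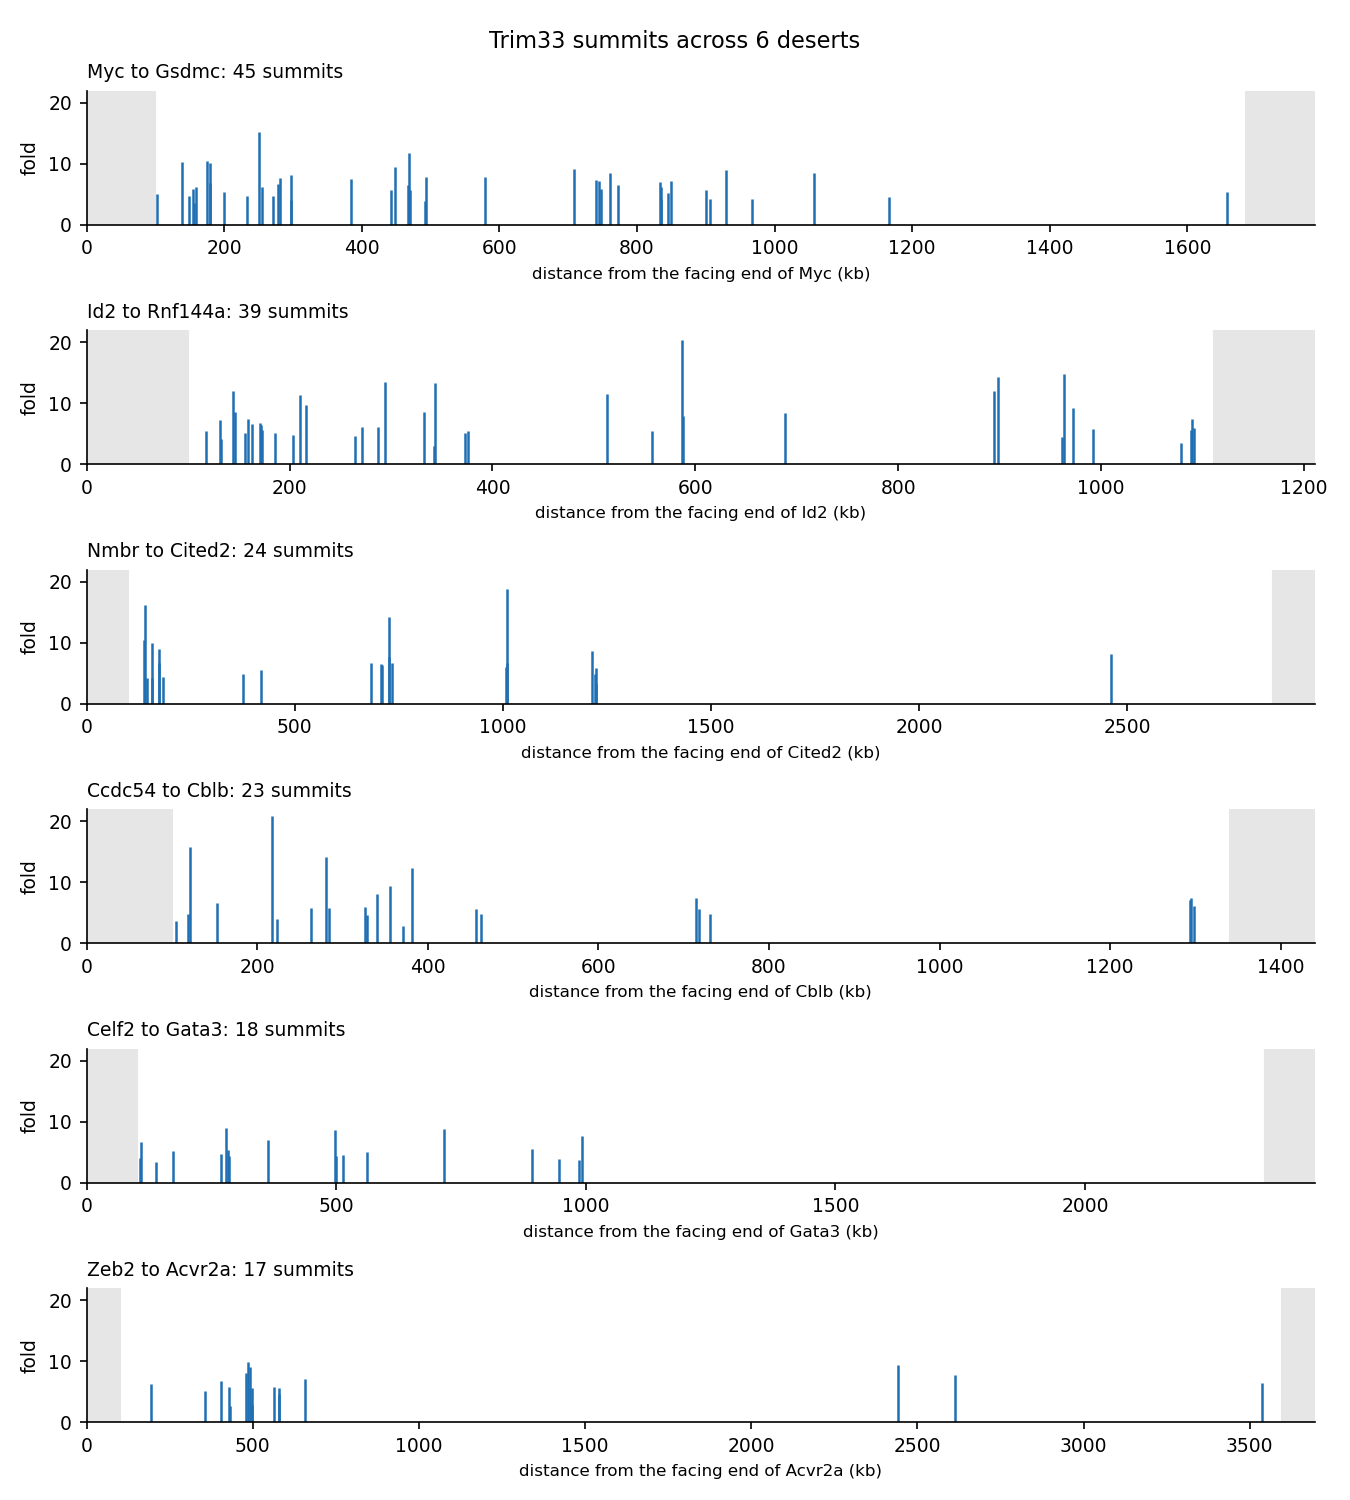
Fold enrichment of each summit (bar height) against its distance in kb from the facing end of 1 flanking gene, for 6 deserts; grey marks the 100 kb next to each gene, where no summit is counted. All 18 summits between Celf2 and Gata3 lie within 991 kb of Gata3, and 23 of 24 between Nmbr and Cited2 lie nearer to Cited2.

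Among deserts with 5 or more summits, the most densely occupied were short, with the exception of Foxo1 to Cog6. The 77.2 kb between Smim20 and Rbpj, which encodes the DNA-binding effector of Notch signals, held 11 summits (142 per Mb, up to 9.19-fold), 5 of them nearer to Rbpj. Between Pmepa1, a feedback inhibitor of TGF-beta signals, and 1700021F07Rik, 45.9 kb held 6 summits (131 per Mb), 3 nearer to each gene, the highest of 13.99-fold at 109 kb from the gene. Between Tnfaip3, which encodes the NF-kB inhibitor A20, and Olig3, 141 kb held 12 summits (85.0 per Mb, up to 9.53-fold), 6 nearer to each gene, of which 7 lay in the lncRNA Gm20139. The 204 kb between Bcl6, which encodes a repressor that T follicular helper cells need to form, and Lpp held 17 (83.1 per Mb, up to 9.43-fold), 11 of them nearer to Bcl6. The 229 kb between Bcl2l11, which encodes the death protein BIM, and Spdye4c held 14 summits (61.2 per Mb), 7 nearer to each gene and 9 of the 14 in the lncRNA Morrbid. Tgfbr2, the type II receptor for TGF-beta, had 12 over 197 kb (60.8 per Mb), 11 of them nearer to Tgfbr2 than to Rbms3 and the highest of 11.5-fold at 166 kb. Cd47 to Bbx held 5 in 79.3 kb (63.0 per Mb). Rates in such short deserts rest on few summits.

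Some desert summits stood in close groups. Summits were joined with their neighbours over a set distance, across gaps that reached 12.46 kb in the deserts. This gave 120 groups of 3 or more desert summits, 30 of them with 5 or more. They held 466 summits (31.6%, exact binomial interval 29.2% to 34.1%) in 80 deserts, with a median span of 10.8 kb. The same joining distance over all autosomal summits put 37.3% in groups. These shares are not like for like, since summits are sparser in deserts and desert groups end at the 100 kb limit. The median fold was 6.62 in desert groups and 6.43 for the other desert summits. With a limit of 5 kb there were 72 groups.

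The largest group had 10 summits over 40.6 kb, starting 132 kb from Id2, with 4.22- to 12.04-fold enrichment. The next had 8 summits over 27.3 kb (up to 13.1-fold), 137 kb from Reep3 and 1841 kb from Ctnna3. A group of 7 over 19.8 kb lay 132 kb from Cog6 and held the 18.5-fold peak named above. Groups of 6 lay 146 kb from Pgrmc2 (up to 11.9-fold), 154 kb from Tgfbr2 (11.5-fold) and 175 kb from Cxcr4 (11.1-fold). Others of 6 lay 150 kb from Tnfaip3 (9.53-fold) and 163 kb from Bcl6 (9.43-fold). A group of 6 lay 190 kb from Spdye4c and 205 kb from Bcl2l11 (9.59-fold), and another 120 kb from Smim20 and 142 kb from Rbpj (9.19-fold).

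Deserts that flank genes of T cells held many more summits per Mb than deserts that flank genes of development or neurons. The gene lists were chosen with earlier results of these data known, so this contrast is a description and tests nothing. T cell transcription factor genes numbered 48 on the autosomes, and 25 of them flanked a desert. Their 32 deserts held 279 summits in 19.4 Mb, or 14.4 per Mb, and 26 of the 32 (81.2%, exact binomial interval 63.6% to 92.8%) held at least 1. Over all deserts the values were 2.25 per Mb and 24.5%. Without the desert from Myc to Gsdmc the rate was 13.2 per Mb. Besides Myc, Id2, Foxo1 and Gata3, Klf6 had a desert on each side, with 14 and 11 summits of up to 12.7- and 14.3-fold.

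Most of the few deserts that flank Th17 genes held summits. Of 26 Th17 genes, 5 flanked 8 deserts, of which 6 held 28 summits (12.4 per Mb). Ahr, a receptor for dietary and microbial ligands that drives Il22, had 9 summits up to 14.0-fold on the side of Agr3 and 2 on the side of Snx13, of which 7 and 0 were nearer to Ahr. Maf, an activator of Il10, had 4 in each of its deserts, up to 7.17-fold towards Dynlrb2 (3 nearer to Maf) and 7.39-fold towards Wwox (1 nearer to Maf). Nfkbiz had 6 up to 8.84-fold. Sox5 had 3 on the side of Etnk1 and 0 in its other desert of 11.5 kb.

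The TGF-beta and SMAD list was split. Of 38 genes 13 flanked 16 deserts, and 6 of these deserts (37.5%) held 59 summits (7.27 per Mb). Acvr2a, Tgfbr2 and Pmepa1 are described above. Gdf6, a BMP family ligand gene, had 15 summits up to 14.7-fold on the side of 2610301B20Rik. Inhba, the activin A subunit gene, had 7 up to 13.95-fold on the side of Sugct, none of them nearer to Inhba than to Sugct. By contrast Bmp2 and Bmp4 flanked deserts of 734 and 525 kb with 0 summits. Without Zeb2 to Acvr2a the rate was 9.09 per Mb.

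Other immune lists were smaller. Cytokine and receptor genes flanked 8 deserts, 5 of them with a summit and 23 summits in all (11.8 per Mb, or 5.42 without Cxcr4 to Thsd7b). Il12b had 5 up to 6.81-fold, all nearer to Il12b than to Adra1b. Fasl, Ifng and Il15 had 1 each, of which that of Il15 was nearer to Zfp330, and Il7 flanked 696 kb with 0. T cell surface and signalling genes flanked 9 deserts, 7 with a summit (46 summits, 9.41 per Mb, or 6.30 without Ccdc54 to Cblb). Icos and Dusp6 had 7 each, up to 8.89- and 10.6-fold, and Itga4 and Ptprc had 3 each. NF-kB and AP-1 genes flanked only 3 deserts, of which those of Tnfaip3 (12) and Jun (8, up to 12.8-fold) held summits and 1 held none. Their 41.0 per Mb became 23.1 without the desert of Tnfaip3. B cell and myeloid genes flanked 9 deserts, 5 of them (55.6%) with a summit, and held 13 summits (4.85 per Mb, or 3.20 without Pdgfra to Kit). Kit had 5 up to 14.4-fold on the side of Pdgfra (2 nearer to Kit) and 1 on the side of Kdr (nearer to Kit). Meis1 flanked 727 and 705 kb with 0.

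Developmental transcription factor genes flanked 57 deserts with 36.8 Mb, of which 11 (19.3%) held 34 summits, or 0.924 per Mb. Sall3 had 9 of these up to 10.6-fold, and 8 lay between Exoc2 and Foxq1, 2 of them nearer to Foxq1. Nr2f1 flanked 2485 kb with 0. Genes of neuronal adhesion and receptors flanked 91 deserts with 132 Mb, of which 14 (15.4%) held 28 summits, or 0.211 per Mb. These deserts were on average longer than those of the T cell factors (32 deserts with 19.4 Mb). Long deserts held fewer summits per Mb in general, and the rates were not adjusted for length. Adgrl2 had 5 and 4 summits in its deserts, and the 4342 kb between Pcdh20 and Pcdh9 held 0. The 2 deserts that belong to a pair of lists (Zeb2 to Acvr2a and Gli3 to Inhba) are counted in both. Deserts without a gene of any list held 2.14 per Mb.

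**Figure D4:**
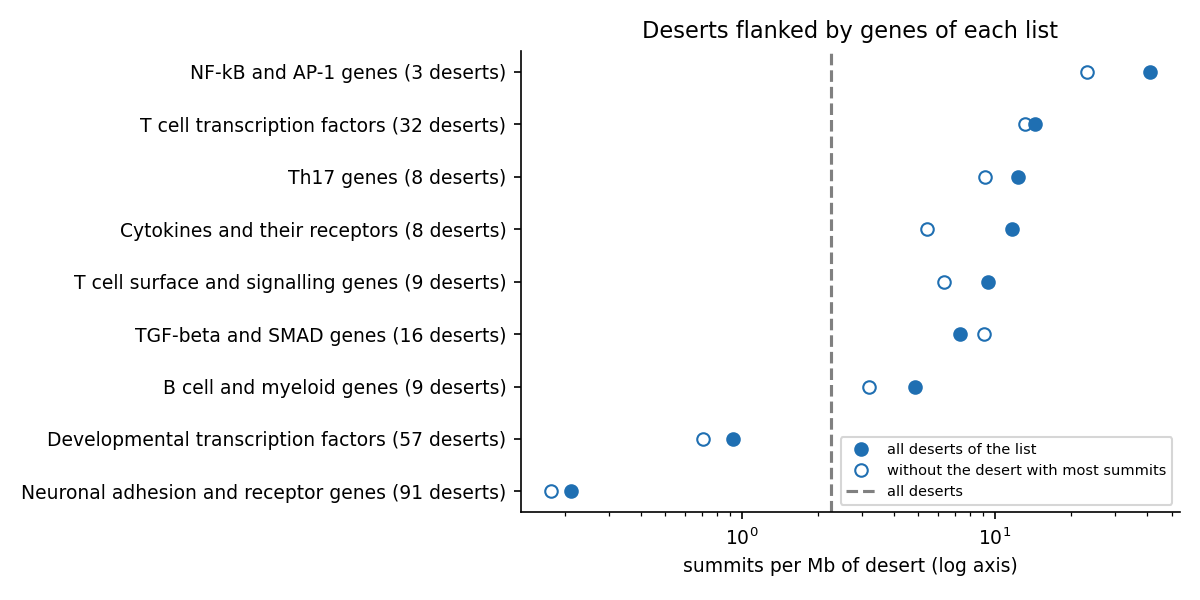
Summits per Mb of desert (log axis) for the deserts flanked by genes of 9 lists, with all deserts (filled) and without the desert with most summits (open); the dashed line is the rate over all deserts, 2.25 per Mb. Neuronal adhesion genes sit at 0.211 and T cell transcription factors at 14.4 per Mb. The lists were chosen with earlier results known, and the rates are not adjusted for desert length.

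Many desert summits lay inside lncRNA genes. Of the 1474, 423 (28.7%, exact binomial interval 26.4% to 31.1%) did, against 11.4% of all autosomal summits and 21.2% of those 10 to 100 kb from genes. LncRNA genes covered 10.8% of the desert sequence. Only 84 (5.70%) lay within 1 kb of an end of a lncRNA gene, against 7.36% of all. The desert summits were in 221 lncRNA genes. Pvt1 and Gm13481 held 13 each and Lncpint 10 (up to 12.4-fold). Gm31813 and Morrbid held 9 each, up to 18.8- and 9.59-fold. Morrbid, a lncRNA known to control Bcl2l11 in short-lived myeloid cells, had a further summit of 3.96-fold at its start, just outside the gene. Gm32543 near Cited2 and Gm36723 near Id2 held 8 each, up to 16.2- and 13.6-fold. When noncoding RefSeq genes were counted as genes too, 134 summits remained over 100 kb from any gene, with a median fold of 6.42.

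Other annotated features were few. Summits in or within 1 kb of a noncoding gene of another kind numbered 28. Deserts with antigen receptor gene segments numbered 7 and held 3 summits in 7.11 Mb, all 3 in the immunoglobulin heavy chain locus Igh. The widest desert peak (3668 bp, 4.46-fold) and another of 1094 bp (5.95-fold) lay in or within 1 kb of the ribosomal RNA pseudogene Rn18s-rs5 on chromosome 17. Their part in any result was not tested.

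Chromosomes differed in their share of desert summits. The rate ran from 0.516 per Mb of desert on chromosome 11 (13 summits) to 4.60 per Mb on chromosome 13 (154) and 4.49 on chromosome 10 (152). The median fold by chromosome ran from 5.92 (chromosome 11) to 7.58 (chromosome 5). The summits farthest from any protein-coding gene were chosen after their distances were seen. They were a 9.33-fold peak 1254 kb from Zeb2, a 10.7-fold peak 1246 kb from Lrfn5, and 3 peaks of 3.29- to 5.90-fold at 1222 to 1224 kb from Cited2.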

How the data were processed

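The deposited list gives, for each peak called on merged replicates, a fold enrichment (a ratio of signal to background at the summit, made by the authors), a −log10 q value deposited by the authors and a score that the authors made from −log10 q. Build mm10 and, among tools, MACS2 2.1.1.20160309, Bowtie 1.2.1.1 and Trim Galore 0.3.7 stand in the submitters' processing notes. The caller's settings and threshold are unknown here. Summits were placed against 20558 protein-coding and 12322 lncRNA genes of RefSeq (GRCm38.p6). The 333 rows listed out of position order, taken to carry scaffold positions, were left out. The placing of summits in deserts and groups was checked on planted summits with known answers. Tools were Python 3.11.15, pandas 2.3.3 and scipy 1.17.1. Named are flanks of the 20 strongest peaks, the 12 deserts with most summits, the 8 densest with 5 or more, the 10 largest groups, and, per list, up to 5 genes with most summits and up to 2 with an empty desert of 500 kb or more. Members and lists were chosen with earlier results of these data known; no test was made. Some items that these rules name are not reported here.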

Additional observations from a re-analysis of the deposited data

How the results depend on the processing

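Values move with the definition of a desert and with the peak set, mostly by construction, since these choices change the sequence or the peaks counted. With 50 kb there were 2622 desert peaks, 3.13 summits per Mb, 27.7% of deserts with a summit and 218 groups. With 200 kb these were 587, 1.29, 20.5% and 49. With all RefSeq genes they were 134, 0.742, 5.41% and 8. With peaks at or above the median fold they were 864, 1.32, 20.2% and 47. With peaks at or above the median −log10 q they were 848, 1.29, 19.4% and 47, with a median fold of 7.98 and 25.9% at 10-fold or more. Joining summits within 5 kb gave 72 groups. The median fold and the share at 10-fold or more stayed within their intervals with 50 kb, 200 kb and all RefSeq genes. Leaving out Gm, Rik, Olfr and Vmn genes, taking whole peaks, joining within 25 kb, and keeping the gene rows out of position order (chosen after seeing the data) moved no value beyond its interval or 1.5 times. The library depth behind the merged list is unknown. No paired analysis was possible because both ChIP replicates were merged before calling.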
